A study of Homo sapiens with 30 samples.

Results

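Heat shock proteins and DNAJ co-chaperones are the protein-folding machinery of the cell. Members of the HSP70 family bind unfolded stretches of other proteins, DNAJ (HSP40) proteins deliver those substrates and speed up ATP hydrolysis by HSP70, HSP90 completes the folding of kinases and steroid receptors, HSPD1 and HSPE1 form the folding chamber of mitochondria, and small HSPs hold unfolding proteins in solution. Part of the family is made constantly, and another part is switched on when heat shock factor 1 (HSF1) binds heat shock elements in the promoters of its targets. In breast cancer cells the family is best known for keeping client proteins such as ERBB2 and the estrogen receptor stable.

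The family was read from arrays of breast cancer cells treated with bone morphogenetic protein 7 (BMP7), a secreted ligand of the TGF-beta family. Members were the probes whose gene name on the array began with HSPA, HSPB, HSPD, HSPE, HSPH, HSP90, DNAJA, DNAJB or DNAJC followed by a number, without the endoplasmic reticulum genes HSPA5, HSP90B1, DNAJB9 and DNAJC3. This gave 58 genes with 98 probes, out of 30484 gene names and 41000 probes on the array. By class, 19 probes belonged to HSP70 and HSP110, 8 to HSP90, 3 to the mitochondrial chaperonin, 10 to the small HSPs, 11 to DNAJA, 18 to DNAJB and 29 to DNAJC.

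The 5 cell lines were HCC1954, MDA-MB-231, MDA-MB-361, T-47D and ZR-75-30, all established from human breast cancers. Each was treated with recombinant human BMP7 or with vehicle for 30 min, 1, 3, 6, 12 or 24 h, which gave 6 arrays per line and 30 in all. By the study's methods, MDA-MB-231 and T-47D were grown in serum concentrations that departed from the recommended conditions. For these lines, cell line and serum cannot be told apart. On each array, RNA of vehicle-treated cells carried Cy3 and RNA of BMP7-treated cells carried Cy5. The cells of parallel cultures were pooled before extraction, no array was repeated and no dyes were swapped, so a difference between the dyes at a probe cannot be told apart from a difference between BMP7 and vehicle. The spread in the tests below is that between cell lines or between time points. In bulk RNA, fewer cells making a transcript and less of it per cell cannot be told apart.

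Levels of marker genes in vehicle-treated cells went with the names of the lines. The median level of ERBB2, given as log2 signal minus the 75th percentile of the array, was 6.96 in HCC1954, 7.18 in MDA-MB-361 and 6.54 in ZR-75-30, against 1.99 in MDA-MB-231 and 3.36 in T-47D. The estrogen receptor gene ESR1 had a median of -7.74 in MDA-MB-231, where the epithelial cadherin CDH1 was also low (-1.85) and vimentin high (6.95). Treatment could be seen in ID1, a direct target of BMP signaling, whose ratio rose by 0.91 on the log2 scale (SE 0.19, adjusted p = 0.0317) from the early to the late times. On each array, 51.71% to 68.15% of probes exceeded background clearly in Cy3 and Cy5 alike. The ZR-75-30 array at 6 h had the widest spread of ratios (SD 0.60 over all probes), and the 6 arrays scanned in a second batch held 3 of the 30 min arrays and none of the 12 h or 24 h arrays.

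Of the 98 member probes, 58 were measured (well above background in both channels) on all 30 arrays and 9 on none. The unmeasured probes left 6 genes without a value: DNAJB7, DNAJB8, DNAJC5G, HSPB2, HSPB3 and HSPB7. No member spot was saturated. HSPA1A is nearly identical to its neighbor HSPA1B, which has no probe under that name, so signal of the HSPA1A probes may hold both transcripts.

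Heat shock elements, the sequences that HSF1 is known to bind, were looked for in the promoters. The element was spelled as 3 alternating units, GAANNTTCNNGAA or TTCNNGAANNTTC (1 is the other on the opposite strand), and searched in the 250 bases before each start site in RefSeq (GRCh38.p14). It was found in 6 of 70 promoter windows of members (8.57%), each of a different gene, and in 0.441% of all 35116 promoter windows. Of the members, 52 genes had a window, some of them several. It is shown in capitals for 4 of the 6 genes, chosen because their classes recur in the results, read 5′ to 3′ on the gene's strand.
HSP90AB1, chr6:44247763-44247858, plus strand: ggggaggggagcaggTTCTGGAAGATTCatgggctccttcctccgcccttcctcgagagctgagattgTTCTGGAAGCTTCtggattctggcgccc
HSP90AA1, chr14:102087105-102087147, minus strand: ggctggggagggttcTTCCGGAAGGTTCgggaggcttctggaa
HSPD1, chr2:197500053-197500090, minus strand: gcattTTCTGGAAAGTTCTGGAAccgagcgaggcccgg
HSPA6, chr1:161524451-161524493, plus strand: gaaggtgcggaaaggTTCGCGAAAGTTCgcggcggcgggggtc
HSPA8 and DNAJB6 also held the 3-unit form. HSPA1A and DNAJB1 held only the shorter form of 2 units, GAANNTTC or TTCNNGAA, which was present in 11.6% of all promoter windows. Their matches are shown because both genes recur in the results.
HSPA1A, chr6:31815407-31815474, plus strand: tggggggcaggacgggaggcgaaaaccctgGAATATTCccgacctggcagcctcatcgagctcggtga
DNAJB1, chr19:14518407-14518474, minus strand: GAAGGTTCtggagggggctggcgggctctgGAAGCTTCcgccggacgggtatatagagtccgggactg
A match is a run of letters, and no binding was measured here.

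BMP7 moved the family little. The median log2 BMP7/vehicle ratio of the members lay between -0.065 and 0.08 on every array. A ratio of at least 2-fold was reached in 17 of 2452 member values, 5 higher and 12 lower. The shares over all probes were 0.362% higher and 0.437% lower, and those of the members were 0.204% and 0.489%. Of the 12 lower values, 6 came from the ZR-75-30 array at 6 h. Among them were HSP90AA1 (-1 and -1.29 at separate probes), HSP90AB1 (-1) and DNAJC13, an endosomal DNAJ protein (-1.42). The other HSP90AA1 probes were no lower than -0.36 (the mean of 10 spots) and -0.82 on any array. Of the dimmer HSP90AB1 probes, 1 was at -0.68 there and 1 was no lower than -0.29 in any line at 6 h. Without the ZR-75-30 array at 6 h, 10 values remained, 4 higher and 6 lower.

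**Figure D1:**
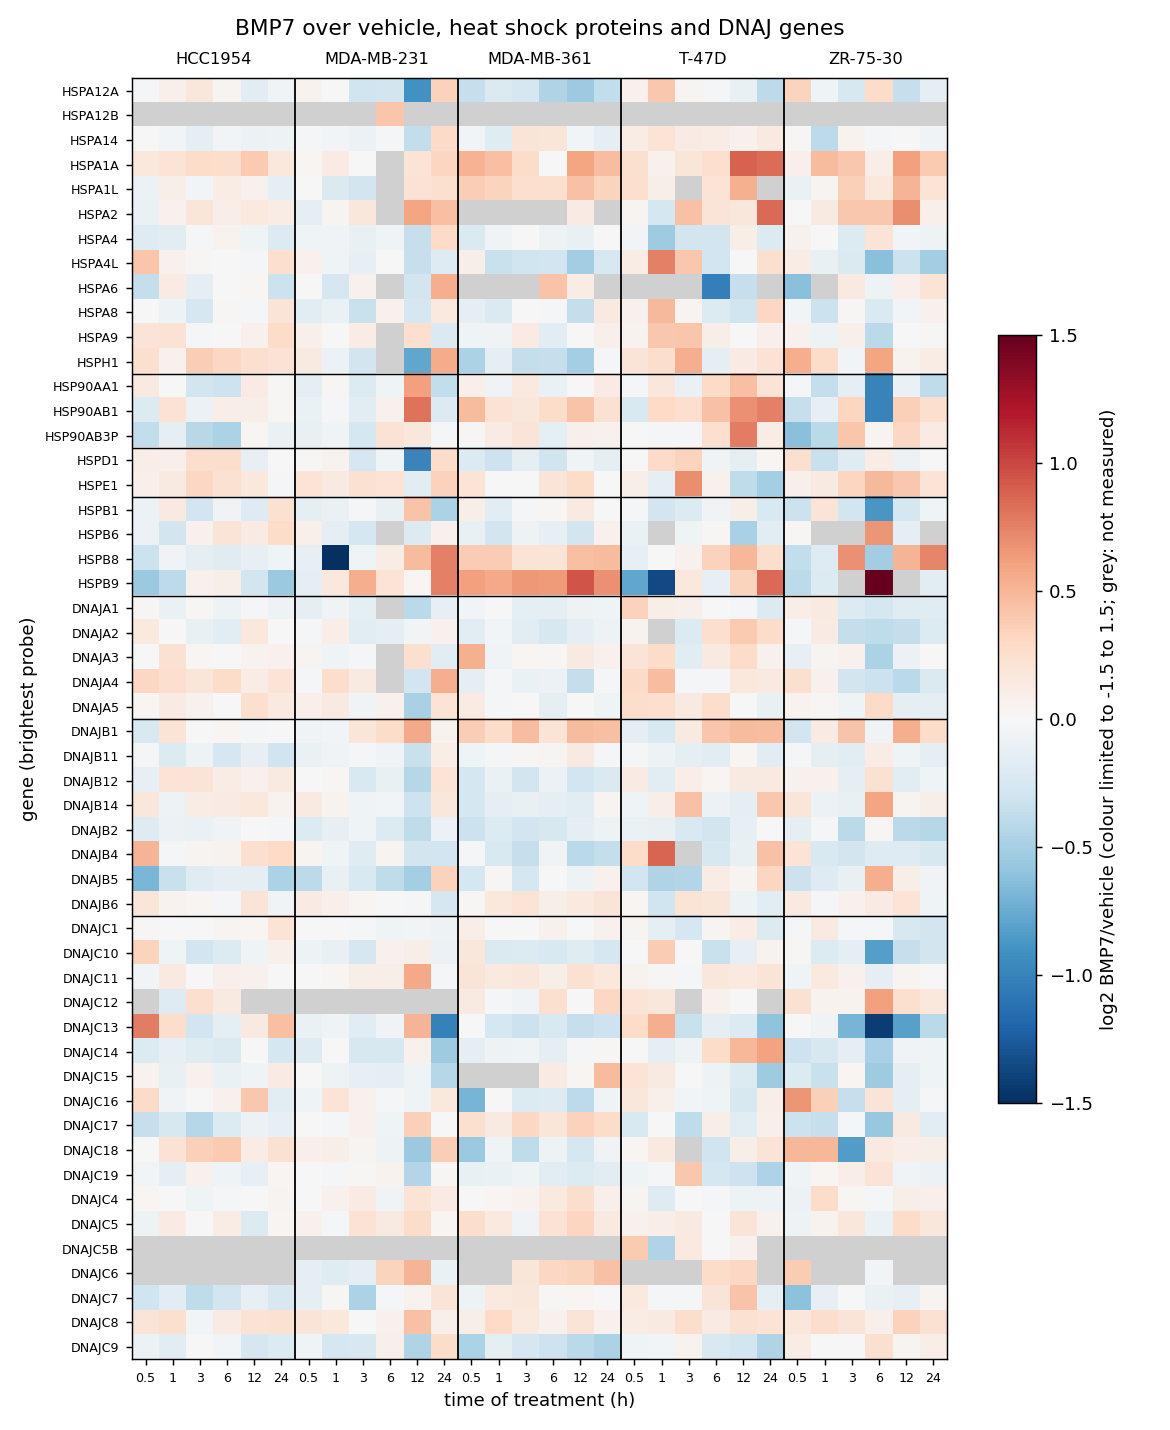
Log2 BMP7/vehicle ratio of the brightest probe of each measured member gene (rows, grouped by class with black lines) on the 30 arrays (columns, by cell line and time in h). Red is higher and blue lower with BMP7, and grey was not measured. Most cells are pale, HSPA1A is red in T-47D at 12 and 24 h, and several of the deepest colours are in ZR-75-30 at 6 h, beside HSPB8 in MDA-MB-231 at 1 h (-3.39).

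The first comparison asked whether the ratio of a member, taken as the mean of each line and averaged over the lines, differed from 0. None of the 79 member probes tested passed an adjusted p of 0.05 in limma, and 10 had an unadjusted p under 0.05, 6 of them higher. That was 12.7% of the members, against 15.7% of all probes. Over all 23329 probes, 0.527% were called higher and 0.201% lower. The nearest member was the brightest probe of HSPA1A, the main stress-inducible HSP70, at chr6:31893470-31893529 (hg18). Its mean ratio was 0.30 (SE 0.06, adjusted p = 0.0532), with all 5 lines above 0. The ratio of that probe was above 0 on all 29 arrays that measured it, from 0.01 in MDA-MB-231 at 3 h to 0.88 in T-47D at 12 h. Its mean over lines was 0.21 at 30 min and 0.26 at 1 h, against 0.54 at 12 h and 0.43 at 24 h. Without a dye swap, a constant dye difference at this probe cannot be told apart from a response to BMP7. Probes above 0 on every array that measured them, a count chosen after the values were seen, made up 0.251% of the 23928 probes of the comparison over time. Keeping outlier-marked spots, leaving out the ZR-75-30 array at 6 h or using the first scan batch alone brought this probe to adjusted p-values of 0.0448, 0.0398 and 0.0482. Leaving out each cell line in turn gave 0.096 to 0.218.

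The second comparison asked whether the ratio changed with time, as the mean of 12 and 24 h minus the mean of 30 min and 1 h across the lines. Of 80 member probes tested, 6 rose and none fell, against 3.71% of all 23928 probes that rose and 1.41% that fell. The 6 were 2 probes of HSPA1A, and 1 probe each of HSPA2, a testis-rich HSP70, and of DNAJB1, DNAJB2 and DNAJB12. DNAJB1 is the stress-inducible partner of HSP70, DNAJB2 sends HSP70 clients to the proteasome, and DNAJB12 is anchored in the endoplasmic reticulum membrane and works with HSP70 of the cytosol. These calls did not hold when the scan batch was a term in the fit (0 of 80, adjusted p from 0.137 to 0.186 for the 6) or when MDA-MB-231, T-47D or ZR-75-30 was left out in turn (0 in each case). Leaving out MDA-MB-361 kept 1 and leaving out HCC1954 gave 6, of which 5 were the same probes. With median scaling of background-corrected signals, which moved the median of all probes to -0.191, the estimates were -0.0665 for HSPA2, -0.00539 for DNAJB1 and -0.178 for the brightest HSPA1A probe, each still above that median.

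HSPA1A gave the largest values of the 6. At the probe at chr6:31892373-31892432, the ratios of T-47D from 30 min to 24 h were -0.09, -0.05, -0.41, 0.30, 1.24 and 1.43. Those of ZR-75-30 were -0.61, -0.07, 0.74, 0.10, 0.70 and 0.17. MDA-MB-361 was above 0 at 30 min (0.67) and at 12 h (0.61) and near 0 between. T-47D stood above the other lines at 12 and 24 h, reaching 2.69-fold at 24 h, while HCC1954 stayed between -0.70 and 0.03. Late minus early was 0.56 (SE 0.16, adjusted p = 0.0476). It was positive in 5 of 5 lines but ranged from 0.0016 in MDA-MB-361 to 1.41 in T-47D, and without T-47D the estimate was 0.345 (adjusted p = 0.291).

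The other probes of HSPA1A ran alongside. The probe at chr6:31892924-31892983 had a late minus early difference of 0.49 (SE 0.13, adjusted p = 0.0415), and T-47D reached 1.03 at 12 h and 1.09 at 24 h. The brightest probe had 0.25 (SE 0.08, adjusted p = 0.06). Over the arrays the ratios of the 3 probes correlated pairwise with r from 0.779 to 0.939, which is a description over shared arrays.

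DNAJB1 had late minus early of 0.33 (SE 0.09, adjusted p = 0.0385), with a positive difference in 4 of 5 lines. Its ratios at 12 and 24 h were 0.48 and 0.46 in T-47D, 0.54 and 0.27 in ZR-75-30, 0.57 and 0.05 in MDA-MB-231, and 0.47 and 0.45 in MDA-MB-361, where 30 min was already at 0.37. HCC1954 stayed between -0.23 and 0.20, with no difference between early and late times. HSPA2 rose by 0.41 (SE 0.11, adjusted p = 0.0416) over the 24 arrays that measured it, and MDA-MB-361 entered with 1 array only.

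For DNAJB2 and DNAJB12 the brightest probe of the gene did not move with the called one. The called DNAJB2 probe had 0.45 (SE 0.11, adjusted p = 0.0378), with the lowest value at 30 min in HCC1954 (-1.04), while the brighter DNAJB2 probe had -0.02 (SE 0.07). The called DNAJB12 probe had 0.29 (SE 0.06, adjusted p = 0.0317), with all 5 lines positive, against -0.03 (SE 0.07) at the brightest DNAJB12 probe and 0.18 (SE 0.10, adjusted p = 0.28, 4 of 5 lines above 0) at a further one. Over arrays, the ratios of the called and the brightest probe correlated at -0.2 for DNAJB2 and -0.403 for DNAJB12, and those of the called and the further DNAJB12 probe at 0.233. In both genes the called probe was dimmer than the brightest and lay nearer the 5′ end, by 3343 and 3769 bases in hg18. Late minus early of the vehicle level alone was -0.26 (SE 0.17, adjusted p = 0.688) at the called DNAJB2 probe. At the called DNAJB12 probe it was -0.36 (SE 0.14, adjusted p = 0.397).

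**Figure D2:**
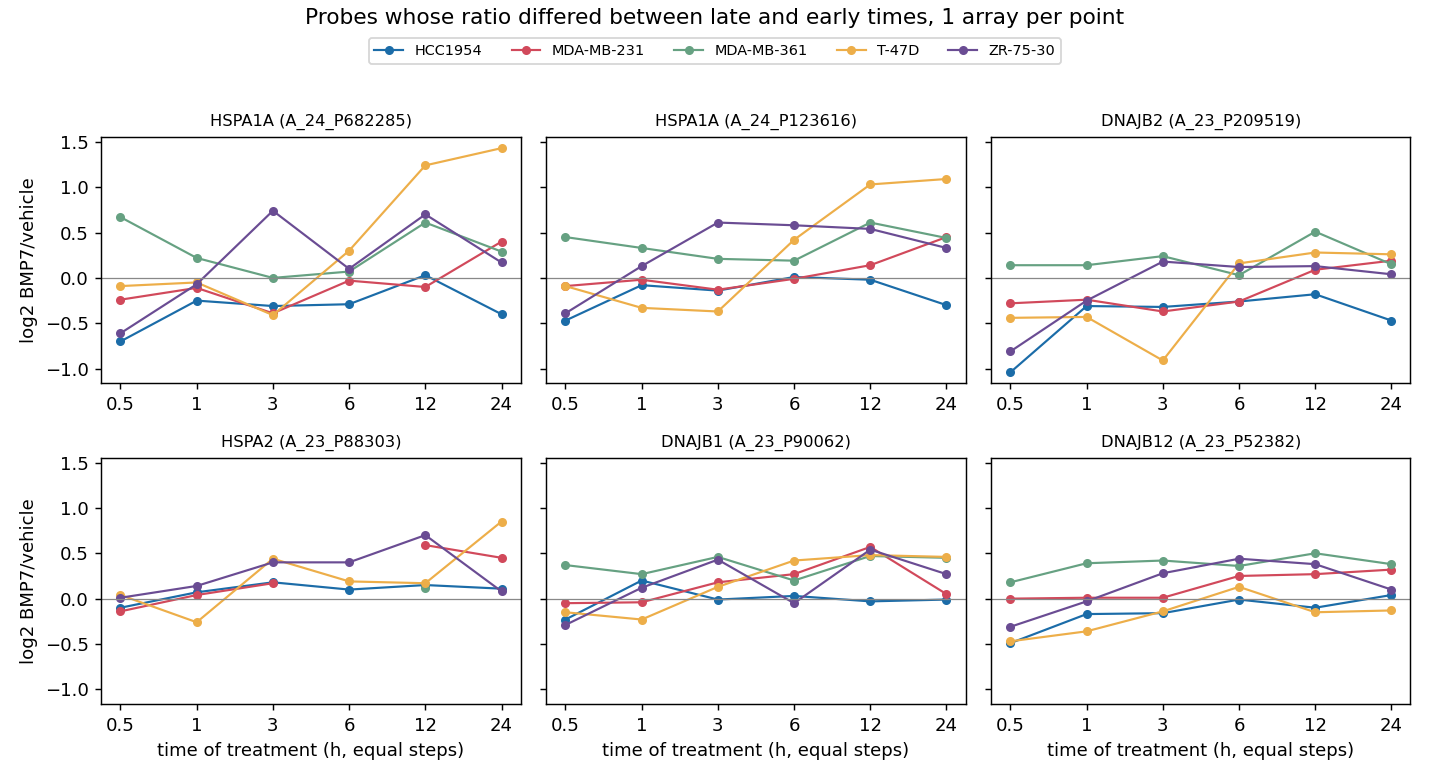
Log2 BMP7/vehicle ratio (vertical axis) against time in h (horizontal axis, equal steps) for the 6 member probes called in late minus early, with 1 line per cell line and 1 array per point. T-47D climbs above 1 at 12 and 24 h at both HSPA1A probes, and the lowest DNAJB2 point is HCC1954 at 30 min (-1.04).

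No probe of HSP90 or of the small HSPs passed the test over time. The brightest HSP90AB1 probe, for the constitutive HSP90, had 0.33 (SE 0.13, adjusted p = 0.111), with 0.69 and 0.75 in T-47D at 12 and 24 h and 0.82 in MDA-MB-231 at 12 h. A dimmer HSP90AB1 probe had 0.34 (SE 0.10, adjusted p = 0.0524), with all 5 lines above 0. HSP90AA1, the inducible HSP90, had 0.09 (SE 0.10, adjusted p = 0.613). HSPB8, a small HSP that works with BAG3 in selective autophagy, had 0.78 (SE 0.28, adjusted p = 0.0812), and the value was 0.43 (SE 0.12, adjusted p = 0.0535) without the MDA-MB-231 array at 1 h, and without that array none of the 6 probes above stayed under 0.05 (adjusted p from 0.0533 to 0.0619). HSPB1 had 0.04 (SE 0.10, adjusted p = 0.861).

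Several other bright members, among them the stress-inducible HSPD1, HSPE1 and HSPH1, gave small values. The brightest probe of HSPA8, the constitutive HSP70, had 0.04 (SE 0.08), HSPA9 of mitochondria -0.03 (SE 0.07), HSPD1 -0.11 (SE 0.10), HSPE1 -0.06 (SE 0.10), HSPA4 0.06 (SE 0.08) and HSPH1 -0.08 (SE 0.11). Their adjusted p-values lay between 0.508 and 0.855. DNAJA1 (-0.17, SE 0.06, adjusted p = 0.0792) and DNAJB4 (-0.22, SE 0.10, adjusted p = 0.153) were on the negative side. HSPA6, a strictly heat-inducible HSP70, was measured on 20 arrays and had 0.26 (SE 0.17, adjusted p = 0.34).

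**Figure D3:**
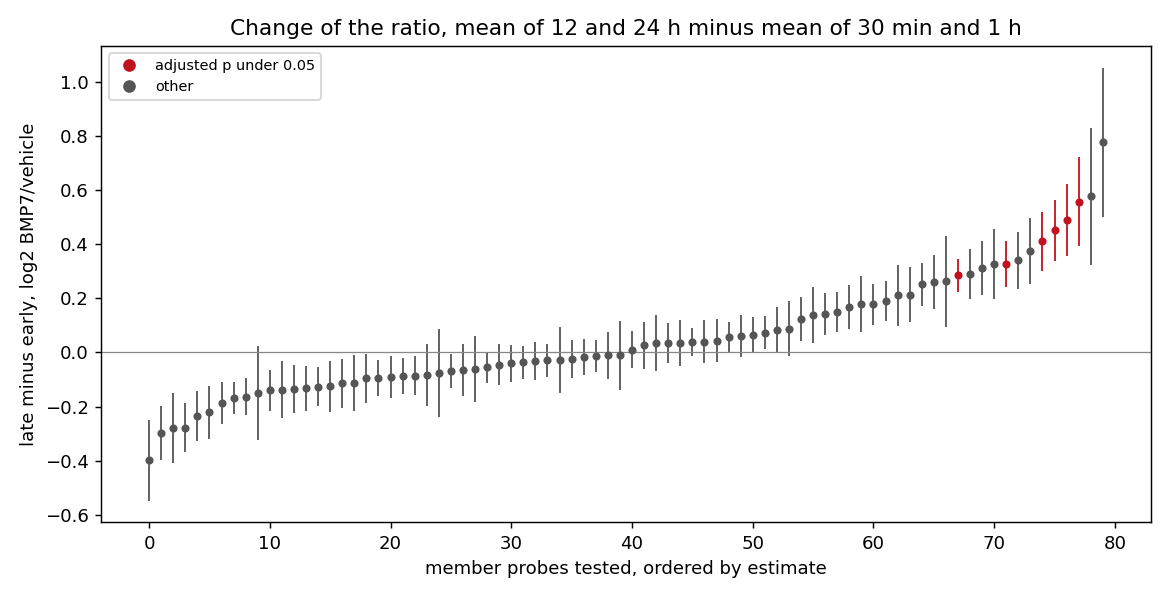
Late minus early difference of the log2 BMP7/vehicle ratio (vertical axis, bars are the SE of the fit) for the 80 member probes tested, ordered by estimate (horizontal axis). The 6 called probes, in red, lie between 0.29 and 0.56, and uncalled probes reach from -0.40 to 0.78.

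Genes that serve the same machinery outside the rule were read alongside. Of 57 probes for heat shock factors and co-chaperones, 5 rose and none fell over time. Over all probes, 3.71% rose and 1.41% fell. They were BAG3 (0.39, SE 0.11, adjusted p = 0.0427), which hands HSP70 clients to autophagy, CDC37 (0.43), which brings kinases to HSP90, SGTA (0.42), SERPINH1 (0.40), the collagen chaperone, and UNC45A (0.38). A second BAG3 probe had -0.07 (SE 0.12). HSF1 had 0.10 (SE 0.06, adjusted p = 0.339). Of 23 probes for the cytosolic chaperonin and mitochondrial chaperones, TRAP1, the mitochondrial HSP90, rose (0.41, SE 0.11, adjusted p = 0.0424). In the mean response 1 of these probes, for the protease CLPP, was lower (-0.32, SE 0.05, adjusted p = 0.0283), as were 0.201% of all probes. Whether the calls of these genes outside the rule held in the alternative fits was not tested. None of the 6 probes of the endoplasmic reticulum genes left out by the rule passed in either comparison.

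The third comparison asked whether the ratio differed between cell lines. Of 76 member probes tested, 24 passed the F-test (31.6%), and 32.1% of all 21011 probes did. The largest ranges of line means among them, each at a single probe, were 0.765 for DNAJC13 (adjusted p = 0.0382), 0.72 for HSPA1A (adjusted p = 0.0440), 0.66 for HSP90AB1 (adjusted p = 0.00685) and 0.63 for both DNAJB2 (adjusted p = 0.0258) and HSPA8 (adjusted p = 0.00699). Apart from DNAJC13 these were dimmer probes of their genes. The brightest probes did not pass, with ranges of 0.27 for HSPA1A (adjusted p = 0.118), 0.45 for HSP90AB1 (adjusted p = 0.110), 0.15 for DNAJB2 (adjusted p = 0.476) and 0.17 for HSPA8 (adjusted p = 0.501). Taking each line against the mean of the other 4 showed where the differences lay.

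T-47D had 7 member probes higher (8.6% of all probes were) and 1 lower (10.2% of all). The higher ones were HSP90AB1 (0.45, SE 0.11, adjusted p = 0.00620), HSP90AA1 (0.39), DNAJC14 (0.36), HSPA4L (0.34), DNAJB4 (0.31), DNAJA2 (0.27) and DNAJA1 (0.21), each at 1 probe. Another HSP90AA1 probe had -0.30 (SE 0.13, adjusted p = 0.103) in T-47D, with ratios of -0.54, -0.82 and -0.54 at 6, 12 and 24 h. The lower one was a dimmer probe of DNAJB12 (-0.31), whose brightest probe had 0.11 (adjusted p = 0.285). The called HSP90AB1 probe in T-47D ran from 0.02 at 30 min to 0.82 and 0.81 at 12 and 24 h.

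MDA-MB-361 had 6 member probes higher (10.5% of all) and 8 lower (8.72% of all). HSPH1, the HSP110 that recharges HSP70, was lower (-0.46, SE 0.12, adjusted p = 0.0118), with all 6 of its arrays below 0. A probe of DNAJA1 (-0.30) and 1 of 3 overlapping HSPA8 probes near the 3′ end (-0.31) were lower too. The others of these HSPA8 probes had -0.23 (adjusted p = 0.0642) and, at the brightest, -0.06 (adjusted p = 0.600). For DNAJA1, the brightest probe had -0.009 (adjusted p = 0.933) and the remaining one -0.09 (adjusted p = 0.291). Among the higher ones were DNAJB2 (0.41), DNAJC11 (0.39), DNAJB12 (0.39) and DNAJC17 (0.37). The brightest probes of DNAJB2 and DNAJC11 had -0.05 (adjusted p = 0.591) and 0.10 (adjusted p = 0.261). HSPA8 fell on both sides, because its 5′ probe was higher (0.40), and so did DNAJB12, with a second probe lower (-0.22).

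HCC1954 had 4 member probes lower (5.36% of all) and none higher (2.55% of all), at HSPA8 (-0.38), DNAJB2 (-0.37), HSP90AB1 (-0.37) and DNAJB12 (-0.27). Each was a dimmer probe of its gene. The brightest probes had 0.03 for HSPA8, 0.11 for DNAJB2, -0.14 for HSP90AB1 and 0.16 for DNAJB12 (adjusted p from 0.149 to 0.822). No member was called for MDA-MB-231 (0.0143% of all probes) or ZR-75-30 (2.65% of all). Without MDA-MB-361 the F-test called 3 members and without HCC1954 it called 7.

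In vehicle-treated cells most members differed in level between the lines. Of the 13 slides, 1 held arrays of 2 lines, so line and slide cannot be told apart in full. The correlation of vehicle levels within a slide was 0.24. Of 87 member probes tested, 81 differed between lines, beside 92.8% of all 29865 probes. The 6 that did not pass were 3 probes of HSPA8 and 1 each of HSPE1, DNAJC11 and DNAJC16. The 6 arrays of a line were taken at different times. None of the 87 was called as changed from early to late times in vehicle-treated cells (0.0737% of all probes were). An unadjusted p under 0.05 was reached by 3 (3.45%, against 9.16% of all probes). Among these was the DNAJB12 probe called in the ratio, at -0.36 (SE 0.14, adjusted p = 0.397). The other probes called in the ratio over time had -0.26 for DNAJB2, -0.08 and -0.07 for HSPA1A, 0.03 for HSPA2 and 0.18 for DNAJB1.

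The widest differences were in the DNAJ genes DNAJA4, DNAJC15 and DNAJC12. DNAJA4, a cytosolic HSP70 partner, had levels of 4.81 to 5.59 in MDA-MB-361 (median 5.11), 2.49 to 3.74 in ZR-75-30 and 0.95 to 2.64 in T-47D. The same probe was at -3.47 to -2.80 in HCC1954 and -3.20 to -2.10 in MDA-MB-231. A second DNAJA4 probe was not well above background on any array of HCC1954 or MDA-MB-231. MDA-MB-361 was at least 113-fold and at least 96.1-fold higher there, the bound being set by the dimmest signal still well above background. The adjusted p-values of 9.56e-20 and 8.60e-20 in limma are for the levels as measured, not for these bounds. At the brighter probe, neighbors in the order MDA-MB-361, ZR-75-30, T-47D and MDA-MB-231 differed, while MDA-MB-231 and HCC1954 were not told apart (0.26, SE 0.21, adjusted p = 0.306).

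DNAJC15, an HSP40 protein of the mitochondrial inner membrane, was lowest in MDA-MB-361, at -5.41 to -4.91, where 3 of 6 arrays were well above background. The other lines lay at 0.99 to 3.30 and did not overlap with it. ZR-75-30 and MDA-MB-231 were not told apart (0.17, SE 0.15, adjusted p = 0.345).

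DNAJC12, a co-chaperone of aromatic amino acid hydroxylases, was highest in MDA-MB-361 (0.33 to 0.71), then ZR-75-30 (-1.06 to -0.26) and T-47D (-3.86 to -3.02), and lower in HCC1954 (-5.98 to -3.66, with 4 of 6 arrays well above background). It was not well above background on any MDA-MB-231 array, where MDA-MB-361 was at least 67.2-fold higher. The adjusted p of 1.74e-18 in limma is for the levels as measured, not for this bound. All neighbors in this order differed, but the step from HCC1954 to MDA-MB-231 rested on MDA-MB-231 signal not well above background.

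HSPA2 was highest in ZR-75-30 (-0.23 to 0.39) and HCC1954 (-1.04 to -0.29), followed by T-47D (-3.62 to -2.16), MDA-MB-231 (-4.57 to -2.38) and MDA-MB-361 (-6.27 to -5.14, with 1 of 6 arrays well above background). ZR-75-30 exceeded HCC1954 by 0.92 (SE 0.27, adjusted p = 0.00594) and T-47D by 2.89 (SE 0.27, adjusted p = 2.52e-09).

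The stress-inducible HSPA1A and HSPB1 shared a low point in MDA-MB-231. HSPA1A was at 3.27 to 3.61 there and at 4.62 to 7.53 in the other lines, with no overlap. MDA-MB-361 exceeded MDA-MB-231 by 3.53 (SE 0.20, adjusted p = 1.26e-13), and the other HSPA1A probes were lowest in MDA-MB-231 as well (means 0.85 and 1.00, against 2.14 to 3.93 elsewhere). HSPB1 was at 3.09 to 4.31 in MDA-MB-231 and at 5.24 to 7.28 elsewhere. DNAJB1, HSPH1 and DNAJB4, also stress-inducible, did not share this low point. T-47D minus MDA-MB-231 was -1.52 for DNAJB1 (adjusted p = 7.84e-10) and -1.44 for HSPH1 (adjusted p = 1.74e-07). MDA-MB-231 exceeded HCC1954 by 1.435 for DNAJB4 (SE 0.38, adjusted p = 0.00262). The brightest HSPA8 probe lay at 6.10 to 8.15 over all arrays and did not pass the F-test (adjusted p = 0.108). The 5′ HSPA8 probe did, with MDA-MB-361 lower than each other line, by 1.06 (SE 0.21, adjusted p = 0.000115) against ZR-75-30.

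HSPB8 was high in MDA-MB-361 (-0.28 to 0.09) and T-47D (-1.28 to -0.23) and low in HCC1954 (-3.57 to -3.03) and ZR-75-30 (-3.45 to -2.30). In MDA-MB-231, 5 arrays lay between -1.86 and -0.66, and the 1 h array stood at 4.75 in the vehicle channel and 1.36 in the BMP7 channel, which made its ratio -3.39.

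**Figure D4:**
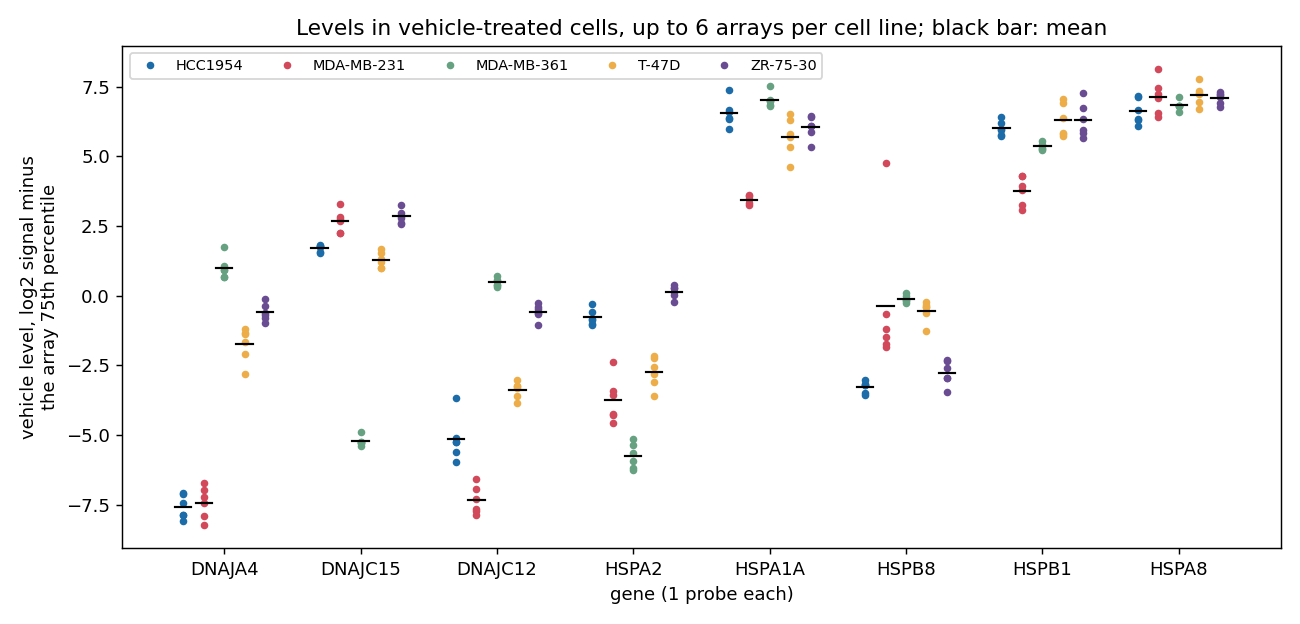
Vehicle level (vertical axis, log2 Cy3 signal minus the 75th percentile of the array) of 8 member genes, 1 probe each, in 5 cell lines, with 6 arrays per line (5 for HSPA1A in MDA-MB-231) as points and the mean as a black bar. DNAJA4, at the probe used for the bounds, and DNAJC12 are high in MDA-MB-361 and ZR-75-30, DNAJC15 is lowest in MDA-MB-361, HSPA1A and HSPB1 are lowest in MDA-MB-231, and the HSPA8 points of the lines overlap. Heights compare lines within a gene, not genes.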

How the data were processed

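The members and gene lists were chosen with earlier results of these data known. Probe coordinates are hg18, per the file headers. The log10 ratios of Cy5 to Cy3 and the intensities of both channels were deposited as written by Feature Extraction 9.5.1.1, after its background subtraction and dye normalization. A table of log2 ratios that the authors deposited served as an alternative. Log10 ratios were turned to log2. Control spots, outlier-marked spots and spots that the scanner software did not call well above background in Cy3 and in Cy5 were removed. Repeated spots gave 1 mean per probe, and each array was centred on its median over all spots not marked as outliers. Vehicle levels are log2 Cy3 intensities minus the 75th percentile of each array.

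Fits used limma 3.58.1 in R 4.3.3 over all probes, with p-values adjusted by Benjamini-Hochberg and called at 0.05. The mean response was tested over 5 line means (at least 4 measured times per line and 4 lines). The other fits had cell line and time as terms and needed at least 20 arrays, with at least 4 early arrays for the change over time and at least 4 per line for the test between lines, and vehicle fits needed at least 4 arrays above background in 1 line. The fits were tested on simulated data. The spread is that between arrays of pooled cultures, and the number of arrays limits the precision. Named genes were a list of the best known members plus, for each fit, up to 5 called probes with the largest estimate, and DNAJB12 was added as the remaining call over time. The brightest probe stood for a gene, except where a called or other probe is described. HSPB9, DNAJC11, DNAJC17, DNAJC14, DNAJA2, HSPA4L and the genes outside the rule were named after their values were seen. Accessions of 89 probes matched RefSeq. Alternatives were other background corrections and scalings, no filter, leaving out cell lines, scan batch and slide.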

Additional observations from a re-analysis of the deposited data

Results flagged for a closer look

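Among 262 groups of 4 to 6 arrays of a cell line, 23 held an array that stood apart from the others, and the critical value used is one that chance alone passes in about 1 in 20 groups. The widest was HSPB8 in MDA-MB-231 at 1 h, with a ratio of -3.39 against -0.12 to 0.75 at the other times and a vehicle level of 4.75 against -1.86 to -0.66. The ZR-75-30 array at 6 h stood apart in the ratios of HSP90AA1 (-1), HSPA9 (-0.40) and DNAJC12 (0.61). MDA-MB-231 at 12 h stood apart in the ratios of HSP90AB1 (0.82) and DNAJA1 (-0.40), and at 24 h in that of DNAJC15 (-0.43). At 30 min the ratios of DNAJB2 in HCC1954 (-1.04), DNAJB4 in ZR-75-30 (0.20) and DNAJC13 in MDA-MB-361 (0.00) stood apart, and at 12 h that of DNAJA4 in MDA-MB-361 (-0.36).

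In the vehicle levels, MDA-MB-361 at 12 h stood apart at both an HSPA1A probe of 7.53 and another of 4.43, and at DNAJA4 (1.75). The same line stood apart at 24 h for HSPD1 (6.13) and at 6 h for DNAJC15 (-4.91). MDA-MB-231 stood apart at 6 h for HSPE1 (7.86) and at 24 h for HSPH1 (4.21). The others were T-47D at 3 h for HSPB8 (-1.28) and DNAJB12 (-1.78), ZR-75-30 at 3 h for HSPA1A (2.06) and HCC1954 at 12 h for DNAJB2 (-0.58).

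The response to BMP7 differed between cell lines by the limma F-test for 10 of the named probes. Among the 76 member probes tested the share called was 31.6%, and among all probes 32.1%. Probes of DNAJC13, HSPA1A, HSP90AB1, DNAJB2 and HSPA8 were on the named list for passing this same test, so their count is no separate result. These include dimmer probes of HSPA1A, HSP90AB1, DNAJB2, HSPA8 and DNAJB12. At the brightest probes the ranges were 0.27 for HSPA1A (adjusted p = 0.118), 0.45 for HSP90AB1 (adjusted p = 0.110), 0.15 for DNAJB2 (adjusted p = 0.476), 0.17 for HSPA8 (adjusted p = 0.501) and 0.30 for DNAJB12 (adjusted p = 0.0488). At the probes named here, the ranges of line means were 0.76 for DNAJC13, 0.72 for HSPA1A, 0.66 for HSP90AB1, 0.63 for DNAJB2, 0.63 for HSPA8, 0.56 for HSPH1, 0.56 for DNAJB12, 0.50 for HSP90AA1, 0.48 for DNAJB4 and 0.37 for DNAJA4.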

How the results depend on the processing

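The number of calls over time changed with the processing. Instead of 6 member probes, none was called with normexp and loess, with normexp and median scaling, with scan batch as a term, with 1 difference per cell line, on the first scan batch alone or without the MDA-MB-231 array at 1 h (0 each). All spots gave 1, 3 to 24 h minus 30 min gave 1, the deposited matrix gave 10, and leaving out the ZR-75-30 array at 6 h gave 15. Leaving out a cell line gave 0 to 6. Under median scaling, which moved the median of all probes to -0.191, HSPA2 (-0.0665), DNAJB1 (-0.00539) and the brightest HSPA1A probe (-0.178) were below 0 but above that median. For the mean response, median scaling called 23 of 79 members, all higher, with 8.81% of all probes called in either direction, the median of all probes at 0.103 and that of the members at 0.185, and keeping outlier-marked spots, leaving out the ZR-75-30 array at 6 h or using the first scan batch called 1 each, against 0 to 0 without a cell line. Differences between lines fell from 24 to 0 with median scaling and to 14 with all spots, and ranged from 3 to 28 without a cell line. The vehicle differences stayed between 71 and 82 without a cell line, and the vehicle change over time between 0 and 0. Values of at least 2-fold numbered 2 at 3-fold, 32 with all spots, 10 with normexp and loess and 10 without the ZR-75-30 array at 6 h. The causes were not tested. Leaving out single arrays, and for time the first scan batch alone, were chosen after seeing the data. Among single probes, 167 values kept direction and side of the threshold, 92 lost the call and 6 gained it. No line and time had replicate arrays, so no single line and time could be tested. Each ratio paired BMP7 with vehicle of the same line and time. The fit with 1 difference per cell line compared late with early times within lines. Cell line was a term in the fits apart from that one and the mean response.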

Other observations

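Probes of the same gene often gave different ratios. For 19 member genes with tested probes at least 60 bases apart in hg18, the ratios of the probe nearest the 5′ end and of that nearest the 3′ end correlated with r under 0.3 over the arrays in 11 genes, and at -0.715 for HSPA4. The 5′ probe was the dimmer in 14 of the 19. Its late minus early difference was the higher in 11 and the lower in 8, with the widest gaps at DNAJB2 (0.45 against -0.02), DNAJB12 (0.29 against -0.03), DNAJB14 (-0.28 against 0.04) and HSPA1A (0.56 against 0.25). This comparison was chosen after the values were seen, and no cause was tested.

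HSPB9, a small HSP gene known from testis, had the highest ratio of any member, 2.62 in ZR-75-30 at 6 h (6.16-fold), and was at -1.35 in T-47D at 1 h. Its vehicle level was dim, at -3.63 and -1.38 on those arrays, and its second probe was not measured on any array.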
